A study of Mus musculus with 4 samples.

Results

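The genes described are 7 genes of cholesterol synthesis and its control, Hmgcs1, Idi1, Fdft1, Sqle, Dhcr7, Srebf2 and Insig1, chosen by name among the 37929 genes whose transcripts have a row in an FPKM table of mouse brain. A row was given to a gene when its Ensembl transcript identifier belonged to that gene in GENCODE mouse release 21, and the 7 genes held 23 of the 91144 matched rows. The tissue was brain hemispheres from adult females of CFW, an outbred mouse strain. The 4 treatment groups were an E2 pellet with glyceollin injections, an E2 pellet with vehicle, a placebo pellet with glyceollin, and a placebo pellet with vehicle as the control. E2 is 17β-estradiol, the main circulating estrogen, and glyceollins are phytoalexins that soybean makes under stress. All mice were injected intraperitoneally for 11 days, and each group gave 1 library, pooled from 2 mice in the E2 with glyceollin and placebo with vehicle groups and from 3 mice in the E2 with vehicle and placebo with glyceollin groups. The 4 value columns of the table are headed A_0, B_0, C_0 and D_0, and no heading names a treatment. No column was therefore assigned to a group, and the columns are described as 4 brain libraries of unnamed treatment, with their values, ranges and medians but with no test of a difference.

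The brain makes nearly all of its own cholesterol, because plasma lipoproteins do not cross the blood-brain barrier, and much of that cholesterol goes into myelin. The enzymes of the pathway are controlled together by SREBP-2, the product of Srebf2, a transcription factor held in the endoplasmic reticulum membrane by SCAP and by the INSIG proteins when sterols are plentiful. When sterols run low, SREBP-2 travels to the Golgi, is cut free by a pair of proteases, and switches on the enzyme genes as well as Insig1 and its own gene.

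SREBP-2 binds sterol regulatory elements near the start of its targets, often beside a box for the factor NF-Y and a GC box for Sp1. The promoter sequences below are shown to let the matches to these motifs be read in place, and because the alternative starts of Dhcr7 return in the transcript values. They are RefSeq sequences (GRCm38.p6, plus strand), trimmed to end before the RefSeq start and before any exon of a coding GENCODE model that falls in the sequence. RefSeq promoters were found for 5 of the 7 genes, Hmgcs1, Idi1, Dhcr7, Srebf2 and Insig1, with 7 promoters in all. The 5 printed are those with a match in the stretch that remained after trimming, and the stretches of Idi1 and of a further Dhcr7 start held none. Capitals mark matches on either strand to the sterol regulatory element TCACNCCAC, the NF-Y box CCAAT or the GC box GGGCGG.
Hmgcs1, chr13:119690101-119690350: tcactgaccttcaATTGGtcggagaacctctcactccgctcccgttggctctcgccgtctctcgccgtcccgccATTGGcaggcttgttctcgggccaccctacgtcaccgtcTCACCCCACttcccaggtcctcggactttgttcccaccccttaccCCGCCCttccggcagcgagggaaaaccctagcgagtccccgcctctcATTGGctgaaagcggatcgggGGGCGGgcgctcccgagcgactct
Srebf2, chr15:82147019-82147180: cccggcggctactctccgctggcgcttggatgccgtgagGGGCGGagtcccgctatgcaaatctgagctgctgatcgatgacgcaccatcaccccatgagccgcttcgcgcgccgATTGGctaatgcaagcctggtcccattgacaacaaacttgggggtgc
Insig1, chr5:28071162-28071362: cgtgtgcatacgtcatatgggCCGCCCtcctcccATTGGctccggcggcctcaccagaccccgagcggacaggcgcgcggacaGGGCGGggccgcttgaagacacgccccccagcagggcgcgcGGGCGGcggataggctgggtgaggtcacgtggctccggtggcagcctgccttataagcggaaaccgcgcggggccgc
Dhcr7, upstream start, chr7:143822917-143823166: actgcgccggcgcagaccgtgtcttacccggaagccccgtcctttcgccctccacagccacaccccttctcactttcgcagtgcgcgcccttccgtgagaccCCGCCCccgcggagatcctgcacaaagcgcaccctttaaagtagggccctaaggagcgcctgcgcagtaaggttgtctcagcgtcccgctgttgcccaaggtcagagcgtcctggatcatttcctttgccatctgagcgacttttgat
Dhcr7, downstream start, chr7:143829964-143830076: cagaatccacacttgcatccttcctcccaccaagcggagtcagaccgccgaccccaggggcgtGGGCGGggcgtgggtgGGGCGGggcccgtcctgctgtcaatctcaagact

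Over the whole RefSeq window, which runs from 250 bases before each start to 50 bases after it, the sterol element matched 1 of the 7 promoters, that of Hmgcs1, 137 bases before the start. It matched 1.24% of all 32851 mouse promoters in the same table. In Hmgcs1 the match lay between NF-Y boxes 176 and 45 bases before the start. The NF-Y box matched 5 of the 7 promoters, against 37.4% of all promoters, and the GC box matched 6 of the 7, against 35.7% of all promoters. The upstream promoter of Dhcr7 at 143823167 held a GC box and no NF-Y box, the RefSeq promoter at 143823399 held no match, and its promoter at 143830214 held NF-Y boxes 85 and 49 bases before the start, both in sequence not printed here because a coding exon covers it. No match to one motif overlapped a match to another in these promoters, and a match is a string of letters in the window, not a measured binding site. Only the exact letters were searched, so the lack of a match does not show that a promoter lacks the element.

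The libraries had the markers of brain in every column. Summed FPKM ranged over the columns from 2723 to 3345 for 6 oligodendrocyte markers, from 2167 to 2795 for 6 astrocyte markers and from 1552 to 1861 for 5 neuronal markers, with no marker of these lists at 0. The 3 liver markers summed to at most 1.37 FPKM, with Alb and Cyp2e1 listed at 0 in at least 1 column. The sum of 4 anterior pituitary markers was 15.2 FPKM in A_0, against 3.26 to 4.31 FPKM in the other columns. Prl (5.16 FPKM in A_0, at most 0.832 elsewhere) and Gh (7.78 FPKM in A_0, at most 0.735 elsewhere) made this difference. Pomc was lowest in A_0, at 2.13 FPKM against 2.42 to 3.01 FPKM, and Cga was highest in C_0, at 0.709 FPKM. Gh and Cga were listed at 0 in at least 1 column other than A_0. Column sums ran from 998784 to 1081706 FPKM, of which rows for microRNA and other small or mitochondrial RNA genes took 41.5% to 47.0%. The depth in reads is unknown, and rows listed at 0 made up 36.1% of A_0 and 42.5% to 49.2% of the other columns.

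All 7 genes were expressed in all 4 columns, and their order of level on summed rows was nearly fixed over the columns. FPKM is a level per length of transcript, so levels can be set against each other between genes. By the median over the columns the order was Srebf2 at 56.1 FPKM, Hmgcs1 at 45.8, Dhcr7 at 37.0, Insig1 at 30.0, Sqle at 21.7, Fdft1 at 17.9 and Idi1 at 5.31 FPKM, which spans 10.6-fold. The order of medians held in 3 of the 4 columns, and in D_0 Hmgcs1 stood above Srebf2. The place of Dhcr7 rests on the sum of all its rows. On coding models only its median was 29.0 FPKM, below that of Insig1. Its highest model alone, Dhcr7-202, had a median of 19.9 FPKM, below that of Sqle. The ranges of Srebf2 and Hmgcs1 overlapped, as did those of Dhcr7 and Insig1. The other neighbours in the order did not overlap, although Hmgcs1 (lowest column 41.2 FPKM) and Dhcr7 (highest column 41.0 FPKM) nearly touched, as did Sqle (lowest 19.8 FPKM) and Fdft1 (highest 19.4 FPKM). Against the 17195 genes with a mean of at least 1 FPKM, the median of Srebf2 was above that of 87.9% of genes, and the median of Idi1 was above that of 36.2%.

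**Figure D1:**
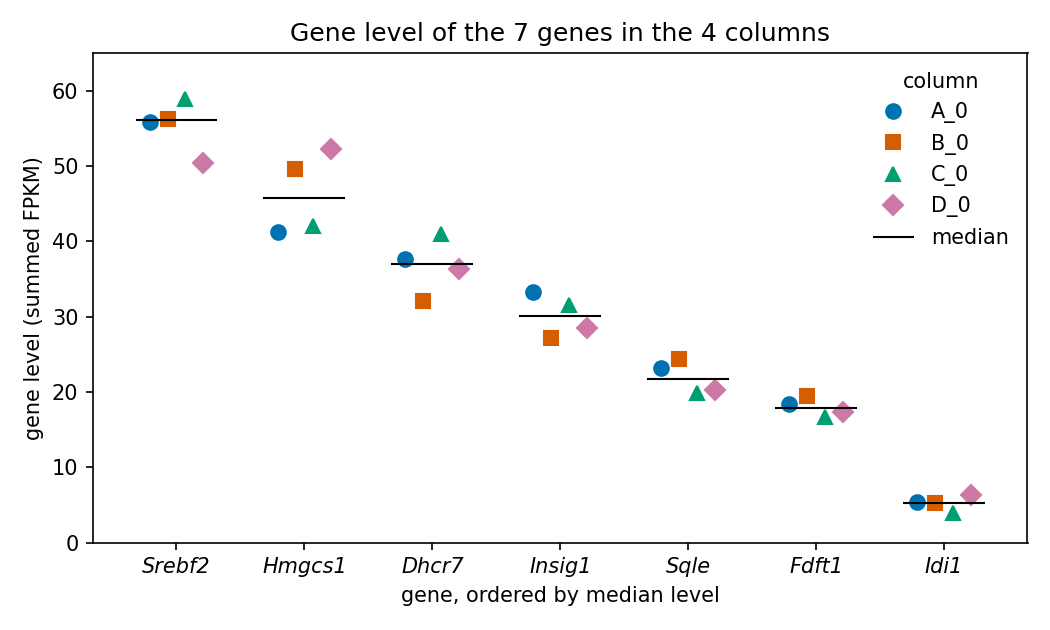
Gene level of the 7 genes (summed FPKM, vertical axis) in the 4 columns of the table, 1 point per column, with the median as a line. Srebf2 lies highest, at 50.4 to 58.9 FPKM, and Idi1 lowest, at 3.89 to 6.30 FPKM, and no column is high or low for all genes.

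The enzymes are given in the order of the pathway. Hmgcs1, on chromosome 13 from 119690379 to 119708260 (GRCm38), encodes the cytosolic synthase that makes HMG-CoA early in the pathway. Its level was 41.2 FPKM in A_0, 49.6 in B_0, 42.0 in C_0 and 52.3 in D_0. B_0 and D_0 were thus the higher columns and A_0 and C_0 the lower, with a ratio of highest to lowest of 1.26 after adding 1 FPKM to each, the form used for all ratios of this kind here.

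Idi1, on chromosome 13 from 8885501 to 8892451, encodes the isomerase that interconverts the isoprenoid building blocks IPP and DMAPP. Its level was 5.39 FPKM in A_0, 5.24 in B_0, 3.89 in C_0 and 6.30 in D_0. C_0 was the low column for Idi1 and D_0 the high one, and the ratio of 1.49 was the largest among the 7 genes. Without the added 1 FPKM the ratio was 1.62, past 1.5-fold, because the level of Idi1 is low enough for the added value to matter. Idi2, the other isomerase gene, which lies on the same chromosome, was at 0.0708 to 0.410 FPKM.

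Fdft1 and Sqle encode consecutive enzymes, squalene synthase and squalene epoxidase, the first committed step to sterols and a rate-limiting step after it. Fdft1, on chromosome 14 from 63145150 to 63179578, was at 18.4 FPKM in A_0, 19.4 in B_0, 16.7 in C_0 and 17.3 in D_0, with a ratio of 1.15, the smallest of the 7. Sqle, on chromosome 15 from 59315077 to 59331192, was at 23.1 FPKM in A_0, 24.4 in B_0, 19.8 in C_0 and 20.3 in D_0, with a ratio of 1.22. Both genes ran in the same order over the columns, B_0 highest, then A_0, D_0 and C_0, and the level of Sqle over that of Fdft1 stayed between 1.17 and 1.26. The end of Fdft1 overlaps that of the cathepsin gene Ctsb on the opposite strand by 774 bases. Ctsb was at 85.9 to 99.4 FPKM, and whether reads were counted by strand is not given in the sources used here, so its part in the Fdft1 level was not tested.

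Dhcr7, on chromosome 7 from 143823145 to 143848410, encodes the reductase that turns 7-dehydrocholesterol into cholesterol at the end of the pathway. Summed over its 10 rows it was at 37.7 FPKM in A_0, 32.1 in B_0, 41.0 in C_0 and 36.4 in D_0. C_0, the lowest column for Idi1, Fdft1 and Sqle, was the highest for Dhcr7, and B_0 was its lowest. The ratio was 1.27.

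The regulators SREBP-2 and INSIG1 have their levels from single rows. Srebf2, on chromosome 15 from 82147181 to 82205379, was at 55.8 FPKM in A_0, 56.3 in B_0, 58.9 in C_0 and 50.4 in D_0. The values in A_0, B_0 and C_0 lay close together and D_0 was lower, with a ratio of 1.17. Mir33, a microRNA gene inside Srebf2 whose product lowers the cholesterol exporter ABCA1, had a row listed at 0 in all 4 columns. That row is for the microRNA gene of 69 bases, not for the mature microRNA. Insig1, on chromosome 5 from 28071363 to 28078662, encodes an endoplasmic reticulum protein that keeps SCAP and the SREBPs from leaving for the Golgi. It was at 33.3 FPKM in A_0, 27.2 in B_0, 31.5 in C_0 and 28.5 in D_0, with a ratio of 1.22. Its higher columns were A_0 and C_0, the lower columns of Hmgcs1, so that the level of Hmgcs1 over that of Insig1 was 1.83 in B_0 and 1.83 in D_0, against 1.24 in A_0 and 1.33 in C_0.

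None of the 7 genes passed a 1.5-fold ratio between the highest and the lowest column, where 40.7% of the 17195 genes with a mean of at least 1 FPKM did. The share was 29.4% among the 13090 protein-coding genes of that level and 17.7% among the 3937 of these with a single transcript row, so the level of the background depends on which genes are taken. With a limit of 25% above the lowest column, 3 of the 7 genes were past it, Hmgcs1, Dhcr7 and Idi1, against 72.2% of all genes. The median ratio was 1.22 over the 7 genes, 1.33 over protein-coding genes and 1.41 over all genes of that level. Idi1 stood apart from the other 6 in this respect, since 41.3% of all genes had a larger ratio than Idi1, while 69.1% to 88.6% had a larger one than the other 6. These ratios contain the treatments, the mice pooled and the measurement error together, which cannot be told apart with 1 library per treatment. In bulk tissue, fewer cells of a type and less RNA per cell cannot be told apart either.

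**Figure D2:**
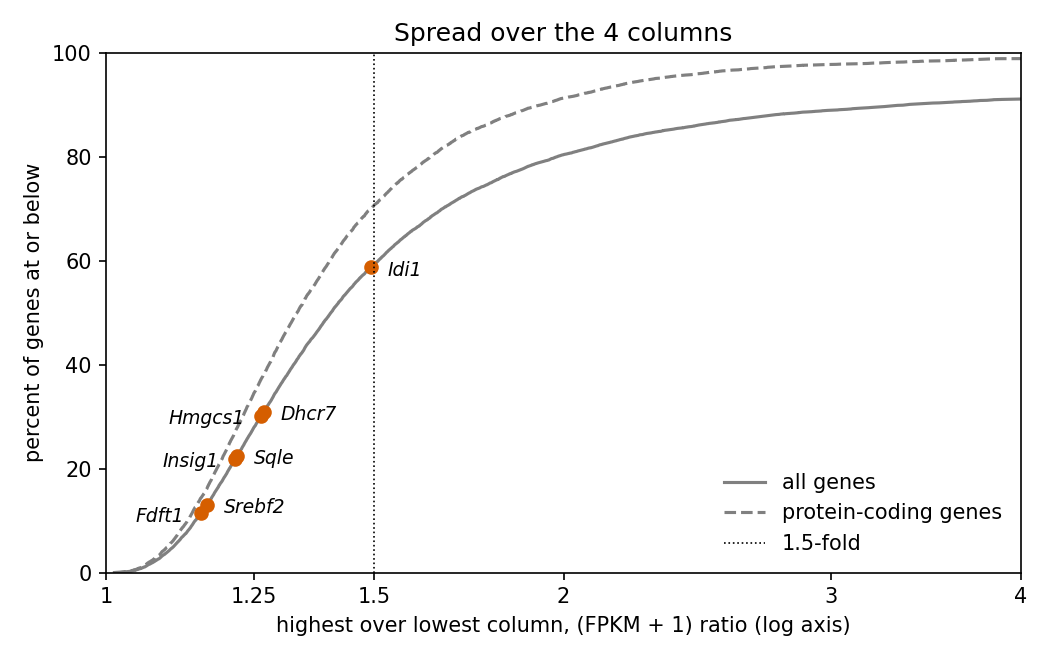
Ratio of the highest to the lowest of the 4 columns, on FPKM + 1 (horizontal log axis), against the percent of genes at or below that ratio. The solid curve is all genes and the dashed curve protein-coding genes, and the points on the solid curve are the 7 genes, which lie between 1.15 for Fdft1 and 1.49 for Idi1, and the dotted line is 1.5-fold.

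The 7 genes had no common order over the columns. Each of the 4 columns was the highest for at least 1 gene and the lowest for at least 1 gene. A_0 was highest for 1 gene (Insig1), B_0 for 2 (Fdft1 and Sqle), C_0 for 2 (Dhcr7 and Srebf2) and D_0 for 2 (Hmgcs1 and Idi1). C_0 was lowest for 3 genes, Idi1, Fdft1 and Sqle, where 23.1% of all genes had their lowest value in C_0. After each column was divided by its sum, C_0 was lowest for 4 of the 7 genes and B_0 highest for 4, but all genes shifted the same way, with 29.9% lowest in C_0 and 35.0% highest in B_0. Median-of-ratios scaling left the counts over the 7 genes as deposited. Summed over the 7 genes, the level was 214.9 FPKM in A_0, 214.2 in B_0, 213.9 in C_0 and 211.6 in D_0, a ratio of 1.02 between the highest and lowest column. Between any pair of columns, the median log2 ratio of FPKM + 1 over the 7 genes lay between -0.21 (C_0 over B_0) and 0.07 (D_0 over B_0). In no pair were fewer than 2 or more than 4 of the 7 genes higher in the column named first.

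Because the profiles of the 7 genes differ, their mean profile was almost flat, from -0.05 in C_0 to 0.03 in A_0 on the centred log2 scale. The 5 genes closest to it by Euclidean distance over the 4 columns were Mtpn, Fam169a, Acbd4, Cpsf2 and Fbxo45, at distances of 0.0095 to 0.012. They are genes with little difference between columns, such as Mtpn at 38.7 to 41.5 FPKM. Among the 7 genes themselves Fdft1 was the nearest to the mean profile, at a distance of 0.12, and 813 other genes were at least as near.

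Transcript rows tell how firm each gene level is. Of the 7 genes, 4 (Hmgcs1, Fdft1, Srebf2 and Insig1) had 1 row each, for the coding models Hmgcs1-201, Fdft1-201, Srebf2-201 and Insig1-201, although GENCODE release 21 lists 4, 4, 7 and 2 transcripts for them. Their gene level is therefore the level of 1 model. Over the 7 genes, 23 of 39 GENCODE transcripts had a row, and 4 of the 23 rows were listed at 0 in all columns. In each gene the same model was the highest in all 4 columns.

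Sqle-201, a coding model of 2758 bases, carried 94.4% of the Sqle level in A_0, 97.8% in B_0, 98.7% in C_0 and 97.5% in D_0. In B_0, C_0 and D_0 the rest was mainly Sqle-204, a retained-intron model at 0.260 to 0.542 FPKM over the 4 columns. In A_0 it was mainly Sqle-202, another coding model, at 0.952 FPKM in A_0 and at no more than 0.0680 FPKM in the other columns.

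Idi1-201, a coding model of 3027 bases, carried 85.4% of the Idi1 level in A_0 and over 99.9% in each of the other columns. The remainder in A_0 was Idi1-204, a coding model of 581 bases at 0.789 FPKM in A_0 and at most 0.00360 FPKM elsewhere. The other 3 rows of Idi1 were listed at 0 throughout. On Idi1-201 alone, A_0 at 4.60 FPKM was below B_0 at 5.23 FPKM, the reverse of their order on the gene sum.

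Dhcr7 was the one gene of the 7 whose level was divided among many models. Dhcr7-202, a coding model of 2556 bases, was at 22.4 FPKM in A_0, 18.9 in B_0, 20.9 in C_0 and 17.7 in D_0, which is 59.4%, 58.8%, 51.1% and 48.7% of the gene sum. A_0 was its highest column, whereas the gene sum was highest in C_0. Short models took much of the rest. Dhcr7-209, of 713 bases, was at 7.03 FPKM in A_0, 3.84 in B_0, 11.5 in C_0 and 1.78 in D_0. Dhcr7-203, of 361 bases, was at 1.21 FPKM in A_0 and 6.38 in D_0 and was listed at 0 in B_0 and C_0, while Dhcr7-208 was at 3.47 FPKM in B_0 and listed at 0 elsewhere. Short models take few reads, and how reads were shared among overlapping models was the authors' estimate, so differences between them were not separated from estimation error.

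The rows of Dhcr7 can also be grouped by where the annotated model begins. Of the 10 models, 3 begin upstream, at 143823145 or 143823167, and 5 begin at least 6481 bases beyond the first of them, between 143829626 and 143830258. The upstream promoter printed above ends at the base before 143823167. The downstream one belongs to the RefSeq start at 143830214, inside the second range. It lies in the first intron of Dhcr7-202, after its first exon (143829626 to 143829739), so it is not the sequence before the start of that model. No sequence before the start of Dhcr7-202 is printed. The downstream group held 81.3% of the Dhcr7 level in A_0, 85.3% in B_0, 79.1% in C_0 and 71.1% in D_0. Not all of its models mark a downstream start. The first exons of Dhcr7-209 (143830234 to 143830265) and Dhcr7-208 (143830238 to 143830265) lie inside exon 2 (143830139 to 143830265) of Dhcr7-201 and Dhcr7-202. These short models therefore cannot tell the starts apart, and Dhcr7-209 alone held 4.90% to 28.0% of the gene level. The upstream group held 9.02% in A_0, 8.34% in B_0, 10.1% in C_0 and 21.7% in D_0, and models beginning further inside the gene held the rest. D_0 was thus the high column for the models that begin upstream. All of the upstream level in A_0, B_0 and C_0, and most of it in D_0, was Dhcr7-206, a noncoding model of 682 bases whose first exon, 143823145 to 143823540, ends at the same base as the first exon of Dhcr7-201. It was at 3.40 FPKM in A_0, 2.68 in B_0, 4.16 in C_0 and 7.20 in D_0. Dhcr7-201, the full-length coding model from the upstream start, was listed at 0 in A_0, B_0 and C_0 and stood at 0.680 FPKM in D_0. It shares its second exon with Dhcr7-202, so that their first exons tell these starts apart.

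**Figure D3:**
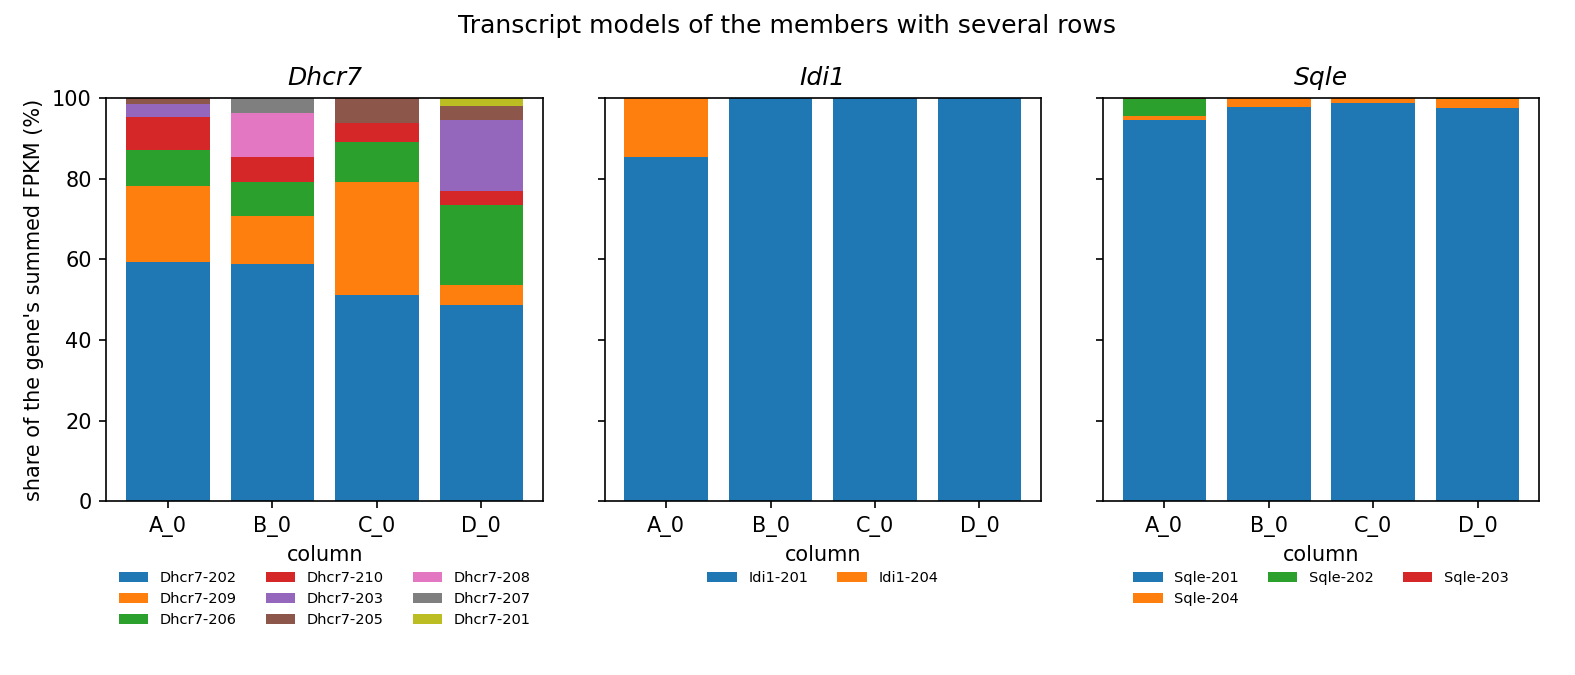
Share of each gene's summed FPKM (vertical axis, percent) held by each transcript model in the 4 columns, for the 3 genes with more than 1 row; models listed at 0 in all columns are left out. Idi1-201 and Sqle-201 hold 85.4% or more of their gene in every column, while Dhcr7-202 holds 48.7% to 59.4%.

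Of the 18 other sterol synthesis enzymes, 17 had a mean of at least 1 FPKM, and 4 of these passed 1.5-fold, where 40.7% of all genes and 29.4% of protein-coding genes did. With only 17 genes, the share in the list is not far from that of protein-coding genes. It is above the 17.7% of protein-coding genes with a single transcript row. The 4 were Cyp51, Msmo1, Hsd17b7 and Lss, which act between squalene epoxide and the later sterols, and Lss lay just past the limit. Cyp51, the lanosterol demethylase, was at 22.7 FPKM in A_0, 39.9 in B_0, 18.4 in C_0 and 24.5 in D_0. Msmo1, the methylsterol oxidase that follows it, was at 52.4 FPKM in A_0, 63.6 in B_0, 29.0 in C_0 and 43.2 in D_0. Both were highest in B_0 and lowest in C_0, as Fdft1 and Sqle were. Hsd17b7, a keto reductase of the same demethylation steps that also turns estrone into estradiol, ran otherwise, at 5.72 FPKM in A_0, 3.66 in B_0, 7.29 in C_0 and 2.51 in D_0. Lss, which closes squalene epoxide into lanosterol, was at 10.6 FPKM in B_0 and at 15.9 to 16.4 FPKM in the other columns. Cyp51 had 3 rows, Hsd17b7 4, Msmo1 7 and Lss 8, so these sums, like that of Dhcr7, rest on several models.

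Over all 22 enzymes with a mean of at least 1 FPKM, the 5 above included, 11 had their lowest value in C_0 and 9 their highest in B_0. Among all genes of that level 23.1% were lowest in C_0 and 28.7% highest in B_0. With median-of-ratios scaling the counts were 10 and 8, and with each column divided by its sum they were 13 and 12, where 29.9% and 35.0% of all genes were so placed. The sums of the choroid plexus markers (251 FPKM, against 328 to 352 FPKM in the other columns) and of the neuronal markers (1552 FPKM, against 1619 to 1861 FPKM) were also lowest in C_0. The sums of the oligodendrocyte (3345 FPKM), astrocyte (2795 FPKM), microglia (72.3 FPKM), endothelium (51.2 FPKM) and red blood cell markers (401 FPKM) were highest in B_0. The part of these markers in the enzyme values was not tested. The enzymes share libraries, so these counts describe 4 libraries and are not 22 separate observations.

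**Figure D4:**
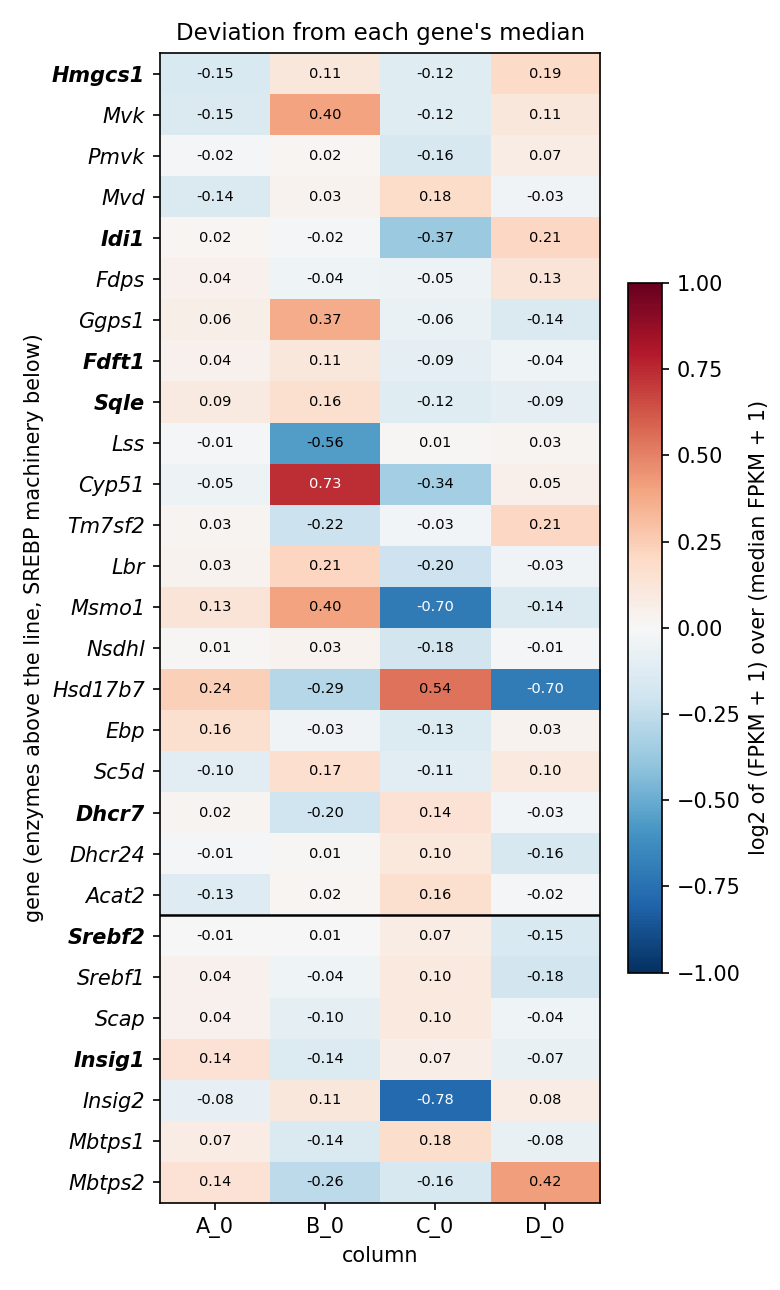
Deviation of each gene from its own median over the 4 columns, as log2 of (FPKM + 1) over (median FPKM + 1), for 21 sterol synthesis enzymes with a mean of at least 1 FPKM and, below the line, 7 genes of the SREBP machinery; Hmgcs1, Idi1, Fdft1, Sqle, Dhcr7, Srebf2 and Insig1 are in bold. Msmo1 and Insig2 are the bluest cells of C_0, at -0.70 and -0.78, and Cyp51 is the reddest of B_0, at 0.73.

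Among the 5 other genes of the SREBP machinery 2 passed 1.5-fold, which is close to the 40.7% of all genes. Insig2, the paralog of Insig1, was at 55.4 FPKM in A_0, 63.5 in B_0, 33.8 in C_0 and 61.8 in D_0. On the sum of its 13 rows, its median of 58.6 FPKM was above that of Insig1, which had 1 row. C_0 alone was low for Insig2, whereas Insig1 had its second-highest value there. Like that of Dhcr7, the Insig2 sum rests on several models. Mbtps2, the second of the proteases that release the SREBPs, was at 7.32 FPKM in A_0, 5.30 in B_0, 5.75 in C_0 and 9.07 in D_0. This level is a sum over 8 rows. Srebf1, whose product favours fatty acid synthesis, was at 53.6 to 65.3 FPKM with a ratio of 1.21, and like Srebf2 it was highest in C_0 and lowest in D_0. Scap, the escort of both SREBPs, was at 22.9 to 26.3 FPKM and Mbtps1, the first protease, at 20.3 to 25.5 FPKM, and both were highest in C_0 and lowest in B_0.

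The counts past 1.5-fold in the next lists are read against 40.7% of all genes and 29.4% of protein-coding genes. Of 7 uptake and trafficking genes 6 had a mean of at least 1 FPKM and none passed 1.5-fold, with Lrp1 highest at 153 to 204 FPKM. Of 9 turnover and efflux genes 1 passed 1.5-fold, Nr1h3, which encodes the oxysterol receptor LXRα. Summed over its 8 rows, Nr1h3 was at 5.63 FPKM in A_0 and 1.82 to 2.34 FPKM in the other columns. Apoe, the main apolipoprotein of the brain, was at 2631 to 2989 FPKM, Cyp46a1, the neuronal hydroxylase through which cholesterol leaves the brain, at 75.1 to 87.8 FPKM, and Abca1 at 2.87 to 3.77 FPKM. Of 7 fatty acid synthesis genes, targets mainly of Srebf1, 2 passed 1.5-fold, close to the share of protein-coding genes. They were Acaca at 27.7 FPKM in A_0, 18.3 in B_0, 24.7 in C_0 and 13.7 in D_0, and Scd1 at 48.2 FPKM in A_0, 53.9 in B_0, 45.1 in C_0 and 33.8 in D_0. The Acaca level is a sum over 9 rows and that of Scd1 is from 1 row. The highest and lowest of the list were the desaturase Scd2, at 237 to 328 FPKM, and the elongase Elovl6, at 6.09 to 7.52 FPKM. D_0 was the lowest column for 5 of these 7 genes, where 28.5% of all genes were lowest in D_0. The astrocyte and oligodendrocyte marker sums were lowest in D_0 too, at 2167 and 2723 FPKM, and their part in these values was not tested.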

How the data were processed

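Per the labels' protocols, RNA of 2 or 3 mice of a group was pooled before sequencing. The mm10 build is named in the submitters' processing notes, with Cuffnorm, Cuffdiff 2.2.1, Cufflinks 2.1.1, TopHat2 2.0.4, Trimmomatic 0.27, FastQC 0.10.1 and CASAVA. The sources used here give no annotation, settings or strand handling. The deposited table holds FPKM values (fragments per length of transcript and per mapped fragments) made by the authors for 94538 Ensembl transcripts in 4 columns whose headings match no sample label. Its columns were taken as libraries of the series with no treatment assigned. Depth is unknown, so no counting interval is given.

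Rows were matched to GENCODE mouse release 21 and summed per gene with Python 3.11.15 and pandas 2.3.3. The spread is the highest over the lowest column after adding 1 FPKM, for genes with a mean of at least 1 FPKM. It was checked on simulated tables. With 1 library per treatment no test of a difference between columns was run, and no p-value is given. Dixon's gap was used to flag single columns. The pathway and marker lists, the motifs, the named genes (the 7 genes, pathway genes past 1.5-fold or highest or lowest in their list by level, and the 5 nearest profiles) and the alternatives were chosen with earlier results of these data known. Some others (Scap, Mbtps1, Abca1, Cyp46a1, and Ctsb and Mir33, which overlap the 7 genes) were named after their values were seen. Some genes of these lists are counted in them but are not reported here by name.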

Additional observations from a re-analysis of the deposited data

Results flagged for a closer look

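Gene and transcript levels were examined for a column that stood far from the other 3, by the gap to the nearest column over the whole range, against Dixon's critical value for 4 values. Of 66 levels examined 9 passed it, and none was the gene level of one of the 7 genes. A model above 0 in a single column passes by construction. Without these 4 models, 5 of 62 levels passed, and of 51 gene levels 3 did. The critical value is set for about 1 in 20 by chance for a single level. The levels share 4 libraries and are not independent, and the share passing over all genes is not given here. The counts are therefore not read as an excess. Of the models above 0 in a single column 3 belong to Dhcr7, Dhcr7-208 at 3.47 FPKM and Dhcr7-207 at 1.19 FPKM in B_0, and Dhcr7-201 at 0.680 FPKM in D_0, and 1 to Sqle, Sqle-203 at 0.0681 FPKM in A_0. A_0 also held minor coding models of Idi1 and Sqle, with Idi1-204 at 0.789 FPKM, against at most 0.00360 FPKM in the other columns, and Sqle-202 at 0.952 FPKM, against 0.00222 to 0.0680 FPKM. Among the other pathway genes, Lss was at 10.6 FPKM in B_0, against 15.9 to 16.4 FPKM elsewhere. Nr1h3 was at 5.63 FPKM in A_0, against 1.82 to 2.34 FPKM. A_0 is also the column with the highest pituitary marker sum, through Prl and Gh, and the part of that in Nr1h3 was not tested. Scd2, a fatty acid desaturase gene, was at 237 FPKM in D_0, against 315 to 328 FPKM.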

How the results depend on the processing

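Of 147 recomputed values, 130 stayed within the column SD (or, for counts, within 1.5 times, and for ratios on the same side of 1.5-fold). Some of the 130 could not have moved, since the dominant share of a gene with 1 row is 100% in any setting. Without a pseudocount, the ratio of Idi1 was 1.62, and with 0.1 it was 1.60, so that 1 of the 7 genes passed 1.5-fold instead of 0; at 25% above the lowest column 3 passed. Genes at 0 in a column have no ratio without a pseudocount, 1409 in all, and were not counted as past it. With protein-coding models only, Dhcr7 had a median of 29.0 FPKM instead of 37.0, which put it below Insig1 in the order of medians. The dominant models then held a median of 67.8% of Dhcr7 and 99.8% of Sqle. With each column divided by its sum, the 7 genes were highest in B_0 for 4, in C_0 for 1 and in D_0 for 1, and lowest in A_0 for 0, in B_0 for 1 and in D_0 for 2. Of all 17195 genes, 7002 (40.7%) passed 1.5-fold. With a mean of at least 5 FPKM, 4026 of 11683 genes (34.5%) did. The counts for protein-coding genes, 3843, and for those with 1 row, 698, were chosen after seeing the data; they hold fewer genes. Leaving out a column can only keep or lower a ratio of highest to lowest, so it could put none of the 7 genes past 1.5-fold. Without C_0 the ratio of Idi1 was 1.17. The settings compare scalings and filters of 1 deposited table; unknown depth limits what the lowest transcript rows can show. No paired analysis was possible because the columns carry no replicate numbers.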
